A study of Mus musculus with 24 samples.

Results

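Meg3 and other imprinted genes were described across the livers and hearts of mice with and without PPARα. The genes were Meg3, its neighbours Rian, Mirg and Dlk1, and the imprinted genes H19, Igf2, Cdkn1c, Peg3, Grb10 and Plagl1. Meg3 was chosen because it was higher in the livers of mice without PPARα in earlier results of these same data, and the others were chosen by name and by their place in the genome. All probe sets that the array's probe table gives to exactly 1 of these genes were taken, which made 33 of the 45037 probe sets that are not array controls. They covered 9 of the 10 genes, with 11 probe sets for Meg3, 5 for Peg3, 4 for Rian, 3 each for Grb10 and Plagl1, 2 each for Mirg, Dlk1 and Igf2 and 1 for Cdkn1c. The only probe set given to H19, 1448194_a_at, was also given to Mir675, the microRNA gene inside H19, and was not counted among the 33.

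The mice were wild-type (WT) and Ppara knockout (KO) animals of the SV129 strain, 10 to 12 weeks old, killed at zeitgeber time 14. PPARα is a lipid-sensing nuclear receptor that turns on genes for burning fat. The labels name no promoter or cell type that limits the knockout. Each tissue was represented by 12 Affymetrix arrays, for the females and males of each genotype, which made 8 groups in both tissues. A group was 3 arrays, and each array held the pooled RNA of 4 mice. Pools 1 to 3 were WT males, 4 to 6 KO males, 7 to 9 WT females and 10 to 12 KO females. No treatment other than the knockout is given in the labels, and WT and KO are the only genotypes.

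Imprinted genes are transcribed mainly from the copy inherited from 1 parent. Meg3, Rian and Mirg are long noncoding RNAs that follow each other on chromosome 12 and are expressed from the maternal copy, and Dlk1, a membrane protein of the Notch family, lies beside them and is expressed from the paternal copy. A methylated control region between Dlk1 and Meg3 sets which copy is used. Igf2 (a growth factor) and H19 (a noncoding RNA) form a similar pair on chromosome 7, where Cdkn1c, an inhibitor of cyclin-dependent kinases, lies in the adjoining domain. Peg3 and Plagl1 encode zinc finger proteins, and Grb10 encodes an adaptor that restrains insulin and IGF receptors. Many of these genes are known to be high in fetal and newborn tissue and to be silenced in the adult liver.

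The promoters show what lies at the starts of the RNA that differed and of a neighbour that did not pass the test in liver. Meg3 has 2 starts in the RefSeq table (GRCm38.p6), at chr12:109540746-109541045 and chr12:109545148-109545447 on the plus strand, and Dlk1 has 1 at chr12:109452573-109452872 on the plus strand. Slc22a18, an imprinted membrane transporter gene beside Cdkn1c that is described further on, has its start at chr7:143473539-143473838 on the plus strand. Each window runs from 250 bases before the start to 50 after it, 5′ to 3′. Capitals mark the 8-letter cyclic AMP response element TGACGTCA, which reads the same on both strands, or the nuclear receptor half-site AGGTCA on either strand.
Meg3, first start: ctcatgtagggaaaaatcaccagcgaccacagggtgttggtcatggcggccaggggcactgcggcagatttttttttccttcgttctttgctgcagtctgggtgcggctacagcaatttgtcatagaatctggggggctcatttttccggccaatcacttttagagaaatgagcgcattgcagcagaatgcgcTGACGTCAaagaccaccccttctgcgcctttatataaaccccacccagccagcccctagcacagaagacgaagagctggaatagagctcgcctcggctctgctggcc
Meg3, second start: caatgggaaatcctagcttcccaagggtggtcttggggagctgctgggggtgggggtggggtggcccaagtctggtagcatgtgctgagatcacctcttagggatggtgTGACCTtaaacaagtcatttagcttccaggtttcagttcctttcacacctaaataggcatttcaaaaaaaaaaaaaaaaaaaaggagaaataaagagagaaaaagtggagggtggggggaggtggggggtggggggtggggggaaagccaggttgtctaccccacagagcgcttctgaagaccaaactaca
Dlk1: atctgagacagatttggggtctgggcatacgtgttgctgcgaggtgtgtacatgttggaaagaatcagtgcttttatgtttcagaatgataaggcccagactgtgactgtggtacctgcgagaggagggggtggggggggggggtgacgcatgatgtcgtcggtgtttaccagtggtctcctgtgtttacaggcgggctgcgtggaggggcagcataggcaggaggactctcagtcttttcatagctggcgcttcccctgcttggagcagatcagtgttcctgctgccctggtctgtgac
Slc22a18: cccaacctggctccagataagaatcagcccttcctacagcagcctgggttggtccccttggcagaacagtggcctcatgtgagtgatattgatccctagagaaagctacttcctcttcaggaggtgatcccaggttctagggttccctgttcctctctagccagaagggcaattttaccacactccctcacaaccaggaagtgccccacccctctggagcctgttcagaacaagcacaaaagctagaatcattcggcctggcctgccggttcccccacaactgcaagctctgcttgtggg
The first Meg3 promoter holds TGACGTCA with its first base 57 bases before the start. This motif is in 1.79% of the 32851 RefSeq promoters of this length. The window has 13 CpG dinucleotides against a median of 7, and 62.1% of promoters have fewer. The window of the second start has 1 CpG, and 5.43% of promoters have fewer. The second holds the half-site in its reverse form, TGACCT, 141 bases before the start, and 16.3% of promoters hold it in either form. The windows of Dlk1 and Slc22a18 hold neither motif. Among the other genes with a promoter in the table, TGACGTCA was found for Peg3, 178 bases before its start, and the half-site for the first of the Igf2 starts. The repeat called DR1 sets a pair of half-sites in the same direction with 1 free base between them and is the form that PPARα is known to bind with its partner RXR. Its perfect letters were searched on both strands and were in none of these windows, and 0.0396% of all promoters hold them. These are matches of letters in short windows and no measure of binding.

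The microRNA gene Mir770 lies within Meg3, and its mature forms are printed for that reason (RefSeq, GRCm38.p6, chr12:109563710-109563731 and chr12:109563744-109563765, plus strand). The mature form of Mir1906-1 is also placed within Meg3 and is not printed. Which Meg3 transcripts the probe sets measure is not given, so whether the RNA that differed carries Mir770 was not tested. Capitals mark the seed, bases 2 to 8.
miR-770-5p: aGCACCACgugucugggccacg
miR-770-3p: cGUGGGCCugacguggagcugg
The arrays report the long RNA, and mature microRNAs were not analysed here.

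All values are log2 intensities. The sorted values of the arrays were close to each other within a tissue and further apart between tissues. The tissues were therefore taken to have been normalized apart. The array median was 2.45 in liver and 3.03 in heart, so levels were compared only within a tissue and a probe set. Ppara was lower in the 3 KO pools than in the 3 WT pools of each tissue and sex. The differences were -1.05 in female liver, -1.12 in male liver, -1.53 in female heart and -1.25 in male heart (limma adjusted p between 0.000252 and 0.0017). Where its probes lie relative to the deletion is not given in the sources used here. Some heart pools stood apart. Male KO heart pool 4 had an Xist level of 6.62, against 2.80 to 3.12 in the other male hearts, and a mean over 10 skeletal muscle genes of 5.35, against 4.39 to 4.70 in the other 11 hearts. Female KO heart pool 10 had 3.34 for the Y-linked gene Eif2s3y, against 1.96 to 2.50 in the other female hearts. The mean over 6 hepatocyte genes ran from 3.14 to 4.41 in the female KO hearts, against 3.25 to 3.32 in the female WT hearts. In liver, Eif2s3y ran from 3.08 to 4.46 in the male KO pools, against 4.73 to 5.18 in the male WT pools. Heart results are therefore also given without pools 4 and 10 where a value turns on them, and their part in other heart values was not tested. The tests measure the spread between pools, and nothing in the labels says whether the pools differ otherwise.

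Meg3 RNA was about 4 times as abundant in KO as in WT liver by 1439380_x_at and 1452183_a_at, its probe sets of highest signal there, in both sexes. The filter on cross-matching probe sets left out 1439380_x_at and kept 1452183_a_at. It also left out Meg3 1426758_s_at and 1436713_s_at, described below. With 1439380_x_at, the values were 3.53, 3.98 and 4.25 in the WT female pools and 5.97, 6.10 and 5.70 in the KO female pools. In males they were 4.26, 4.50 and 4.57 in WT and 6.54, 6.75 and 6.19 in KO. The lowest KO pool lay above the highest WT pool in each sex, and by more than the range of either group. The difference of KO from WT was 2.00 (SE 0.18), a 4.01-fold difference, in females and 2.05 (SE 0.18), 4.13-fold, in males. These differences are the ones that chose Meg3, so no test is given for them. In whole liver RNA, more cells that express Meg3 and more Meg3 RNA per cell cannot be told apart.

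A second probe set, 1452183_a_at, showed the same separation. The WT female pools had 4.20, 4.46 and 4.02 and the KO female pools 6.28, 6.35 and 5.96, a difference of 1.97 (SE 0.24). The WT male pools had 4.27, 4.43 and 4.99 and the KO male pools 6.32, 7.30 and 6.45, a difference of 2.13 (SE 0.24). Male KO pool 5 was the highest of the liver pools here, and no KO pool overlapped a WT pool of its sex. Probe set 1426758_s_at comes from the same source sequence record as the second and is no separate measurement of another transcript. It had 4.38, 4.16 and 4.21 in WT females and 5.41, 5.35 and 5.47 in KO females, a difference of 1.16 (SE 0.16). In males it had 4.08, 3.80 and 4.34 in WT and 5.73, 5.67 and 5.08 in KO, a difference of 1.42 (SE 0.16). The differences by this probe set were thus smaller than by the other two, although all 6 KO pools lay above all 6 WT pools.

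The remaining 8 Meg3 probe sets differed among themselves. Probe set 1452905_at had 3.08, 3.22 and 2.88 in WT and 3.94, 3.55 and 3.80 in KO females, and 2.89, 3.10 and 2.63 in WT and 3.68, 3.84 and 3.93 in KO males. The differences were 0.70 (SE 0.13) and 0.95 (SE 0.13), with no overlap in either sex. Probe sets 1428764_at and 1428765_at are listed under the same source record as 1452905_at, yet their differences lay between -0.05 and 0.07. With 1436713_s_at the difference was 0.54 (SE 0.23) in females and 0.65 (SE 0.23) in males. The lowest male KO pool, at 2.49, lay within the male WT range of 2.31 to 2.61. For 1436057_at the differences were 0.34 in females and 0.19 in males, and for 1429257_at 0.08 and 0.17. The other 2, 1429256_at and 1452906_at, had differences between -0.03 and 0.14. The 4 probe sets with differences of at most 0.14 had group means between 2.05 and 2.63, close to the liver median of 2.45, where RNA levels are hard to tell from background.

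**Figure D1:**
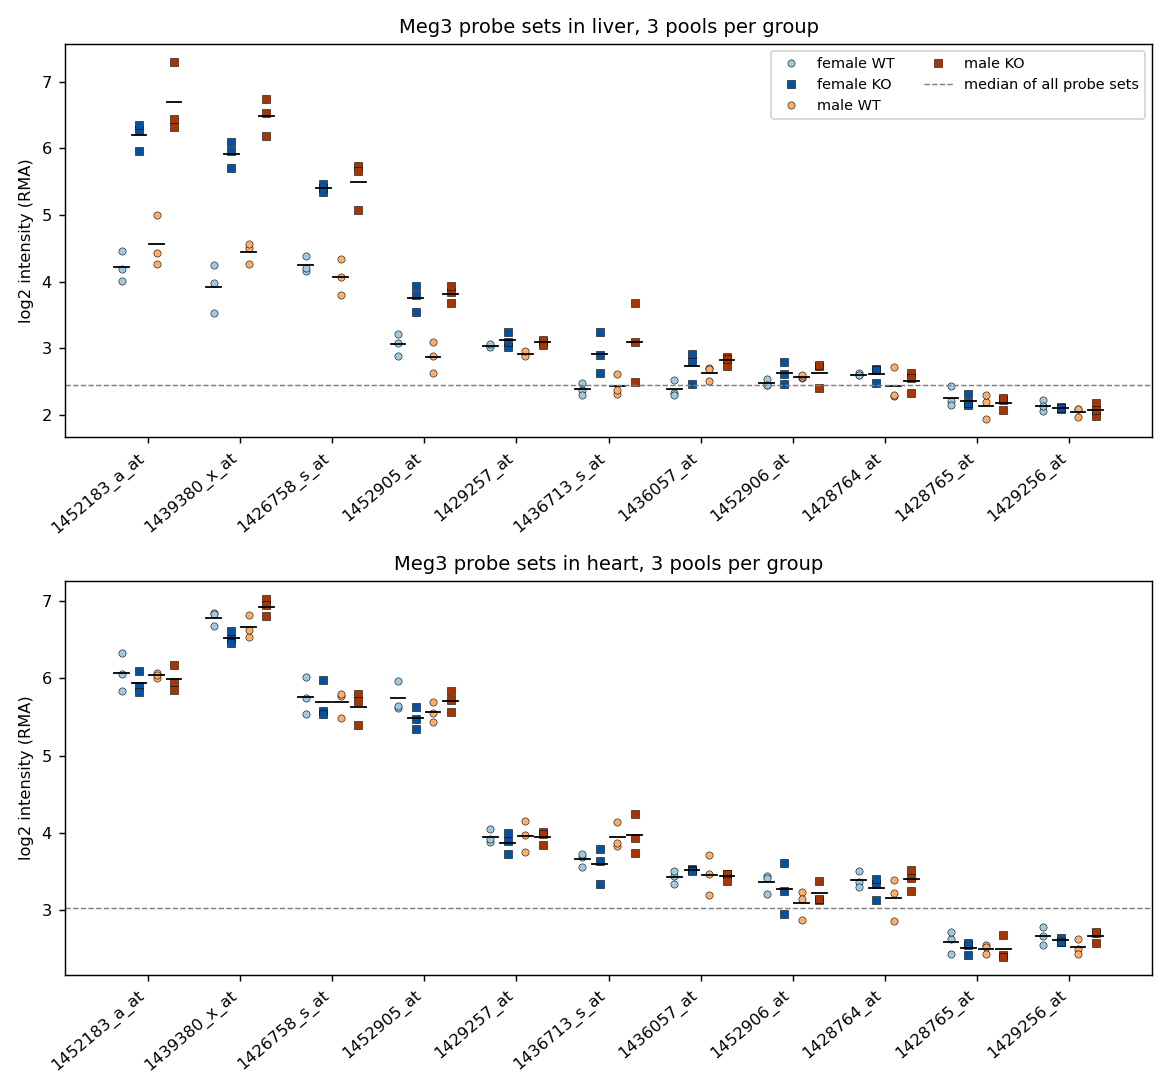
Log2 intensity of the 11 Meg3 probe sets in liver (top) and heart (bottom), with 1 point per pool, circles for WT, squares for KO, black bars for the mean of 3 pools and a dashed line for the median of all probe sets. In liver the KO pools of 1439380_x_at, 1452183_a_at, 1426758_s_at and 1452905_at lie above the WT pools of their sex, while in heart no probe set passed the test.

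Over all 11 Meg3 probe sets, the 3 KO pools all lay above the 3 WT pools in 5 in female liver and in 6 in male liver. Over the whole array 4.49% of probe sets had this order in females and 7.79% in males, and since these values chose Meg3 nothing is read from the comparison. The difference was 1 or more in 3 of the 11 in each sex. The median over the 11 was 0.34 in females and 0.19 in males, beside -0.00296 and 0.00796 over the whole array. The size of the Meg3 difference therefore depended strongly on the probe set, from -0.05 to 2.00 in females and from 0.03 to 2.13 in males. The difference of the KO effects between the sexes was -0.04 (SE 0.25) for 1439380_x_at and -0.16 (SE 0.34) for 1452183_a_at, females minus males, and was not tested.

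Meg3 did not pass the test in heart with any of its 11 probe sets. With 1439380_x_at the female WT hearts had 6.84, 6.67 and 6.83 and the female KO hearts 6.51, 6.45 and 6.61, so the KO pools were the lower ones. The male WT hearts had 6.53, 6.82 and 6.63 and the male KO hearts 7.02, 6.80 and 6.94, with 1 WT pool inside the KO range. The differences were -0.26 (SE 0.09, limma adjusted p = 0.624) in females and 0.26 (SE 0.09, limma adjusted p = 0.712) in males. Their own difference between the sexes, -0.52 (SE 0.13), did not pass (limma adjusted p = 0.986). With 1452183_a_at the heart differences were -0.13 and -0.05, and over the 11 probe sets they ran from -0.26 to 0.10 in females and from -0.05 to 0.26 in males. Without heart pool 4 the male value for 1439380_x_at was 0.21, and without heart pool 10 the female value was -0.25. Subtracting the heart difference from the liver difference gave 2.26 (SE 0.21) in females and 1.79 (SE 0.21) in males for this probe set, given without a test because the liver values chose it.

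Female livers had less Meg3 signal than male livers in both genotypes with 1439380_x_at, but not beyond the threshold. The difference of females from males was -0.52 (SE 0.18, limma adjusted p = 0.267) in WT and -0.57 (SE 0.18, limma adjusted p = 0.249) in KO, with no overlap of the sexes in either. The other probe sets did not show this alike: 1452183_a_at had -0.34 in WT and -0.50 in KO, and 1426758_s_at had 0.18 and -0.08, with overlapping pools.

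The RNAs that follow Meg3 showed no such difference in liver. None of the 4 Rian and 2 Mirg probe sets passed in liver, and the differences ran from -0.12 to 0.14 in females and from 0.01 to 0.13 in males. For Rian, the host of many small nucleolar RNAs, 1440001_at had 2.46, 2.37 and 2.31 in WT and 2.32, 2.49 and 2.29 in KO female livers, a difference of -0.01 (SE 0.09, limma adjusted p = 1.00). In male livers it had 2.30, 2.19 and 2.37 in WT and 2.39, 2.38 and 2.12 in KO, and the pools of the genotypes overlapped in both sexes. For Mirg, the host of a microRNA cluster, 1457030_at had 2.44, 2.42 and 2.29 in WT and 2.57, 2.32 and 2.66 in KO female livers. Its difference was 0.14 (SE 0.09) in females and 0.09 (SE 0.09) in males (limma adjusted p = 1.00 and 0.825). Its male KO pools, with 2.57, 2.44 and 2.44, all lay above the male WT pools, with 2.40, 2.33 and 2.43, with almost no gap. The liver group means of all 6 probe sets lay between 1.97 and 2.52, near the array median, so a low level of these RNAs may not have been measurable.

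Dlk1, the paternally expressed neighbour, did not pass in liver either. The 2 probe sets differed between KO and WT liver by -0.04 and 0.11 in females and by 0.13 and 0.11 in males. With 1442724_at the male WT livers had 2.36, 2.36 and 2.41 and the male KO livers 2.42, 2.64 and 2.45, a difference of 0.13 (SE 0.08, limma adjusted p = 0.707). Among the 22 probe sets of genes other than Meg3, this one and Mirg 1457030_at were the 2 with all male KO livers above all male WT livers, an order that 7.79% of the array had. All Dlk1 group means in liver lay between 2.12 and 2.50, again near the median of the arrays.

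In heart, the differences of Rian, Mirg and Dlk1 were at most 0.25 in size. The means of their probe sets over the 12 heart arrays lay between 2.36 and 2.89, below the heart median of 3.03. RNA levels are hard to tell from background there. The Mirg probe sets had the largest differences in female heart, 0.20 (SE 0.10) for 1440097_at and 0.25 (SE 0.10) for 1457030_at, with KO pools above WT pools (2.75, 2.67 and 2.79 against 2.50, 2.55 and 2.55, and 2.84, 2.87 and 2.95 against 2.52, 2.70 and 2.67). Neither passed (limma adjusted p = 0.811 and 0.702). In male heart the same 2 had -0.22 and -0.02, and the Rian and Dlk1 probe sets lay between -0.10 and 0.16 in the hearts of both sexes.

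The genes on either side of the chromosome 12 stretch gave a wider view. With 27 probe sets for the 5 nearest single-gene neighbours on each side, none passed in any of the 4 comparisons of KO with WT. In liver their differences ran from -0.61 to 0.10 in females and from -0.61 to 0.33 in males. The largest were in Slc25a47, a liver mitochondrial carrier, with -0.61 in females (limma adjusted p = 0.596), and in Ppp2r5c, a regulatory subunit of protein phosphatase PP2A, with -0.61 in males (limma adjusted p = 0.107). No single-gene probe set was found for Begain, Rtl1 or Dio3, other imprinted genes of the cluster. Dio3os, the transcript antisense to Dio3, differed by 0.04 in female and 0.11 in male liver.

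**Figure D2:**
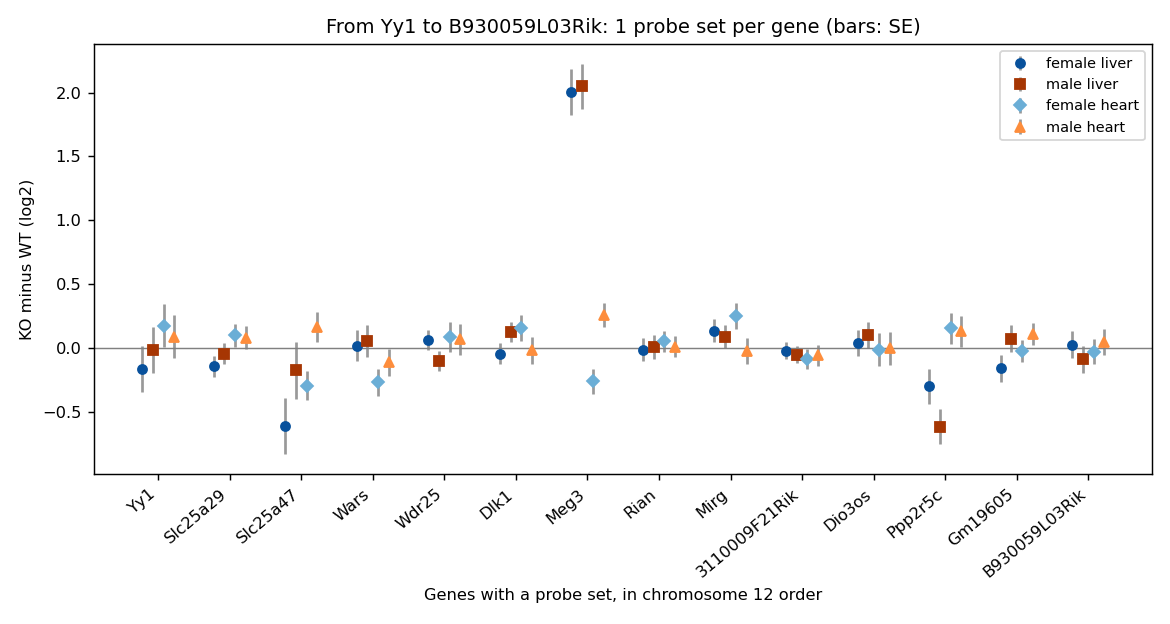
Difference of KO from WT (log2, bars give the SE) for 1 probe set per gene, in the order of the genes on chromosome 12 from Yy1 to B930059L03Rik, in the 4 combinations of tissue and sex. Meg3 stands at 2.00 and 2.05 in liver, while the other 13 genes lie between -0.61 and 0.14 in liver.

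Taking all genes other than Meg3, 0 of 22 probe sets passed in the livers of either sex in limma, where 0.48% of the whole array passed in females and 0.344% in males. At an unadjusted p under 0.05 there were 2 in females, both of Peg3, and 0 in males, against 5.69% and 8.51% of the whole array. The median difference of the 22 was 0.01 in females and 0.06 in males. In heart 0 of 33 passed in either sex in limma, Meg3 included, where 0.311% of the whole array passed in females and 0.275% in males. At an unadjusted p under 0.05 there were 5 of 33 in females and 4 of 33 in males, larger shares than the 6.33% and 5.8% of the array. Probe sets of the same gene are not independent, so nothing is read from these shares. A count of 0 past the adjusted threshold among so few probe sets is close to its backgrounds and is no result about the group. In heart the KO pools lay above the WT pools in 4 and below them in 2 of 33 in females (5.5% and 6.02% of the array), and in 1 and 1 of 33 in males (5.23% and 5.4%).

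**Figure D3:**
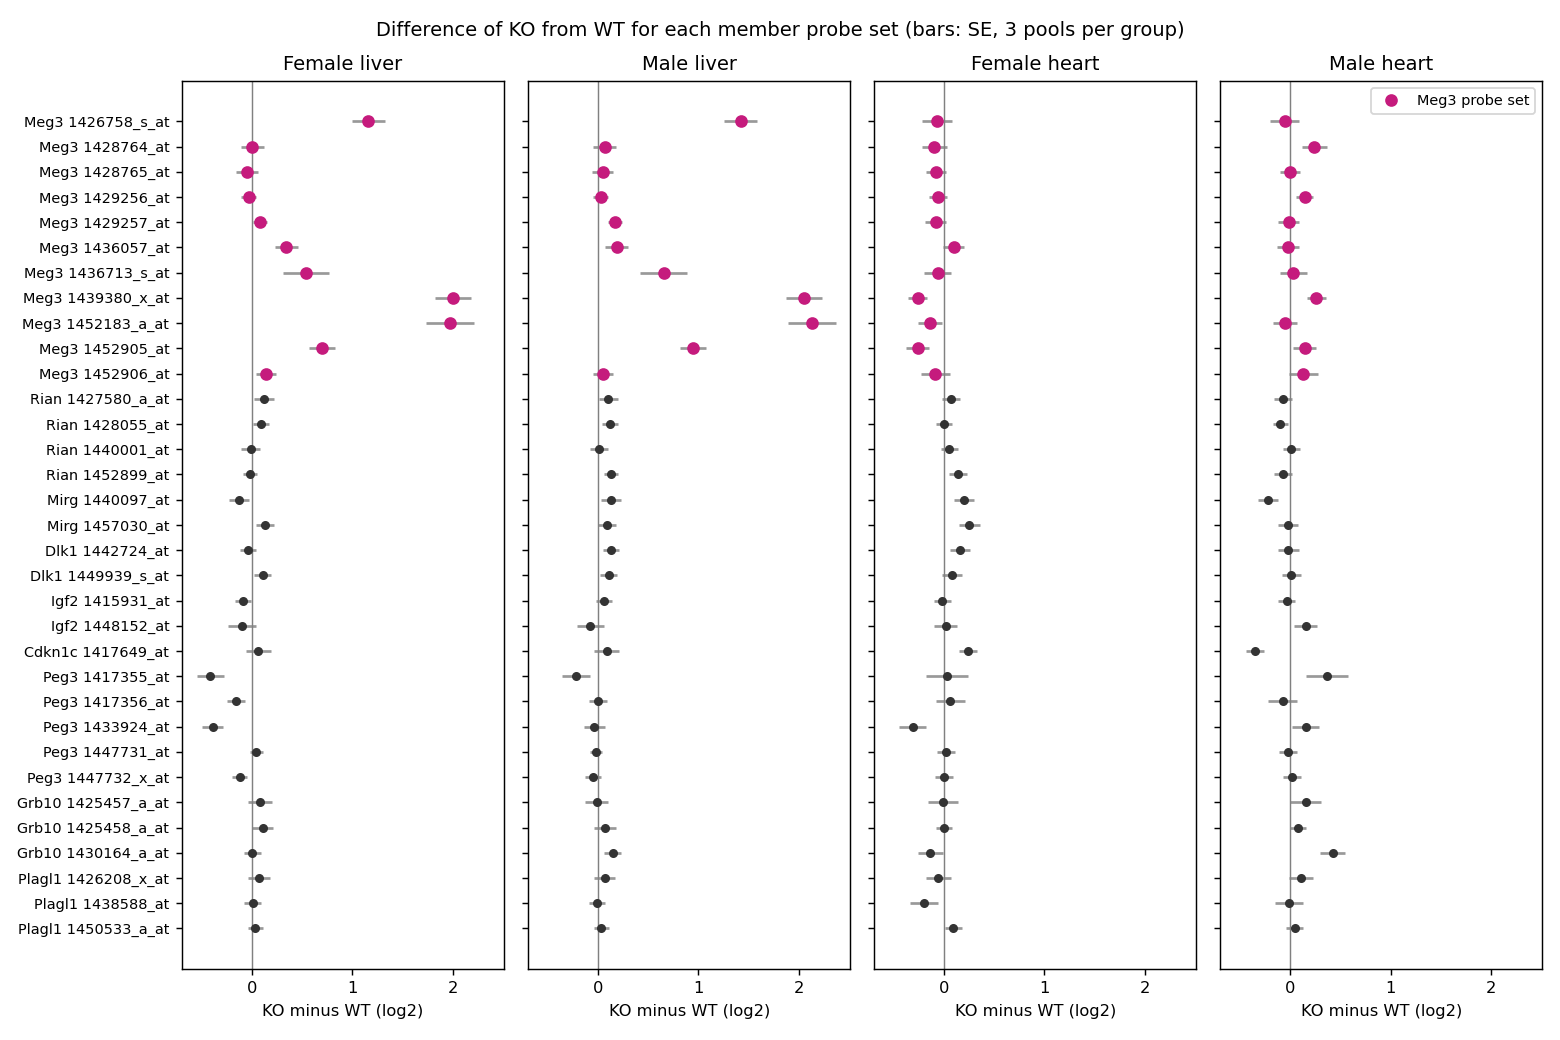
Difference of KO from WT (log2, bars give the SE) for each of the 33 probe sets, in female and male liver and heart, with Meg3 in magenta. The 3 Meg3 probe sets above 1 stand out in liver; the 22 probe sets of other genes lie between -0.41 and 0.15 there, and all 33 lie between -0.35 and 0.42 in heart.

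Peg3, a zinc finger protein that is expressed from the paternal copy, came nearest to a difference in liver. In female livers 1433924_at had 3.03, 3.09 and 3.19 in WT and 2.85, 2.74 and 2.54 in KO, a difference of -0.39 (SE 0.10, limma adjusted p = 0.215). Probe set 1417355_at had 3.30, 3.94 and 3.53 in WT and 3.03, 3.25 and 3.27 in KO, a difference of -0.41 (SE 0.14, limma adjusted p = 0.499) that was -0.24 without WT pool 8, the highest. The KO pools lay below the WT pools in both, and also in 1447732_x_at, where the difference was -0.12. These were the 3 of the 22 with that order, which 5.17% of the array had. The other 2 Peg3 probe sets, 1417356_at and 1447731_at, differed by -0.15 and 0.04. In male livers 1433924_at differed by -0.03. With 1417355_at the male difference was -0.22 (limma adjusted p = 0.708), with KO pools again below WT pools, the only probe set of the 22 with that order in males, where 7.78% of the array had it. Neither passed, and the difference between the sexes for 1433924_at, -0.36 (SE 0.14), did not pass (limma adjusted p = 0.986). WT females stood above WT males with both, by 0.40 (SE 0.10, limma adjusted p = 0.103) and 0.49 (SE 0.14, limma adjusted p = 0.153), without passing, and the KO means of females and males were 2.71 and 2.67 with the first and 3.18 and 2.89 with the second. In a fit of the compared arrays alone the first of these sex differences passed (limma adjusted p = 0.0362), as it did with array weights (0.0449). Without female WT pool 7 the second passed, at 0.63 (limma adjusted p = 0.0456). Neither sex difference passed in any other alternative.

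The remaining genes had low signal in liver. No probe set of a gene other than Meg3 had a mean more than 1 above the liver median. For Igf2, 1448152_at had 2.79, 2.71 and 2.89 in WT and 2.55, 2.82 and 2.71 in KO female livers, and 2.47, 2.86 and 2.78 in WT and 2.56, 2.39 and 2.94 in KO male livers. The genotypes overlapped in both sexes, with differences of -0.10 and -0.07 (SE 0.14 each). Cdkn1c had 2.92, 2.83 and 2.83 in WT and 2.80, 2.70 and 3.28 in KO female livers and differed by 0.07 in females and 0.09 in males. Grb10 and Plagl1, with 3 probe sets each, lay between -0.01 and 0.15 in both sexes.

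The Grb10 probe sets differed in how the sexes compared in liver. With 1425458_a_at the female livers had 3.06, 2.93 and 3.03 in WT and 3.24, 2.90 and 3.19 in KO, and the male livers 2.53, 2.82 and 2.62 in WT and 2.57, 2.85 and 2.75 in KO. The females lay above the males in each genotype, by 0.35 (SE 0.11, limma adjusted p = 0.196) in WT and 0.39 (SE 0.11, limma adjusted p = 0.151) in KO, and neither passed. With all 24 arrays in a single fit the KO difference passed (limma adjusted p = 0.0257), as did that of Meg3 1439380_x_at (limma adjusted p = 0.0474). Neither of them passed in any other alternative. The other 2 Grb10 probe sets differed between females and males by -0.07 and 0.13 in WT and by 0.03 and -0.01 in KO, with overlapping pools. Between the sexes, 0 of 33 passed in WT liver and 0 of 33 in KO liver in limma, where 1.17% and 1.09% of the array passed, with 7 and 5 at an unadjusted p under 0.05 (11% and 9.25% of the array).

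In heart more of these genes could be measured. Outside Meg3, 6 probe sets of 5 genes stood more than 1 above the heart median, those of Igf2, Cdkn1c, Peg3, Grb10 (2) and Plagl1. Igf2 1448152_at had 7.32, 7.04 and 6.89 in WT and 7.11, 7.15 and 7.04 in KO female hearts, and 7.31, 7.03 and 7.08 in WT and 7.39, 7.38 and 7.12 in KO male hearts. The genotypes overlapped, with differences of 0.02 (SE 0.11) and 0.16 (SE 0.11). The second Igf2 probe set, from the same source record, lay near the median with means between 2.68 and 2.79. Plagl1 1426208_x_at had group means between 6.95 and 7.12 and Grb10 1425458_a_at between 6.99 and 7.12, with differences of at most 0.11 in size and limma adjusted p of at least 0.974. The genotypes overlapped with the former, and with the latter the male KO pools lay above the male WT pools by a mean of 0.08. Plagl1 1438588_at and 1450533_a_at had heart means of 2.73 and 2.63, below the heart median of 3.03. Plagl1 1426208_x_at was among those left out by the filter on cross-matching probe sets.

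Cdkn1c, the kinase inhibitor, had opposite differences in the hearts of the sexes. The female WT hearts had 5.99, 5.83 and 5.74 and the female KO hearts 6.08, 6.19 and 6.0. The male WT hearts had 6.41, 6.52 and 6.34 and the male KO hearts 6.03, 6.13 and 6.08. All KO pools lay above all WT pools in females, narrowly, and below them in males. The difference was 0.24 (SE 0.09, limma adjusted p = 0.647) in females and -0.35 (SE 0.09, limma adjusted p = 0.264) in males, and neither passed. The KO effect of females minus that of males was 0.58 (SE 0.13) and did not pass (limma adjusted p = 0.986), where 0% of all probe sets passed. WT females differed from WT males by -0.57 (SE 0.09, limma adjusted p = 0.0552), with no overlap, while the KO groups had nearly the same mean, 6.09 in females and 6.08 in males. The sex difference in WT passed with array weights (limma adjusted p = 0.0423), with arrays centred on their medians (0.0266) and with 1 probe set per gene (0.0476). It did not pass in any of the other alternatives (limma adjusted p from 0.0519 to 0.373). Without heart pool 4 the male KO difference was -0.32, and without pool 10 the female one was 0.24.

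Grb10 1430164_a_at and Peg3 1417355_at had the largest positive differences in male heart. Grb10 had 3.76, 4.32 and 4.07 in WT and 4.31, 4.59 and 4.52 in KO male hearts, a difference of 0.42 (SE 0.12, limma adjusted p = 0.443). The lowest KO pool lay within the WT range. Without pool 4 its difference was 0.51 (limma adjusted p = 0.319), and without WT pool 1 it was 0.28. In female hearts it had 4.6, 4.53 and 4.51 in WT and 4.51, 4.47 and 4.25 in KO, a difference of -0.14 (SE 0.12). Peg3 had 4.14, 4.17 and 4.38 in WT and 5.01, 4.75 and 4.04 in KO male hearts, a difference of 0.37 (SE 0.21, limma adjusted p = 0.914), in which the KO pools lay on both sides of WT. Without pool 4, the highest, it was 0.16, and without KO pool 6, the lowest, it was 0.65. In female hearts Peg3 1433924_at differed by -0.31 (SE 0.13, limma adjusted p = 0.733), with 4.16, 3.91 and 3.66 in WT and 3.83, 3.52 and 3.44 in KO, and the genotypes overlapped. It ran from -0.44 to -0.19 with each pool left out in turn.

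**Figure D4:**
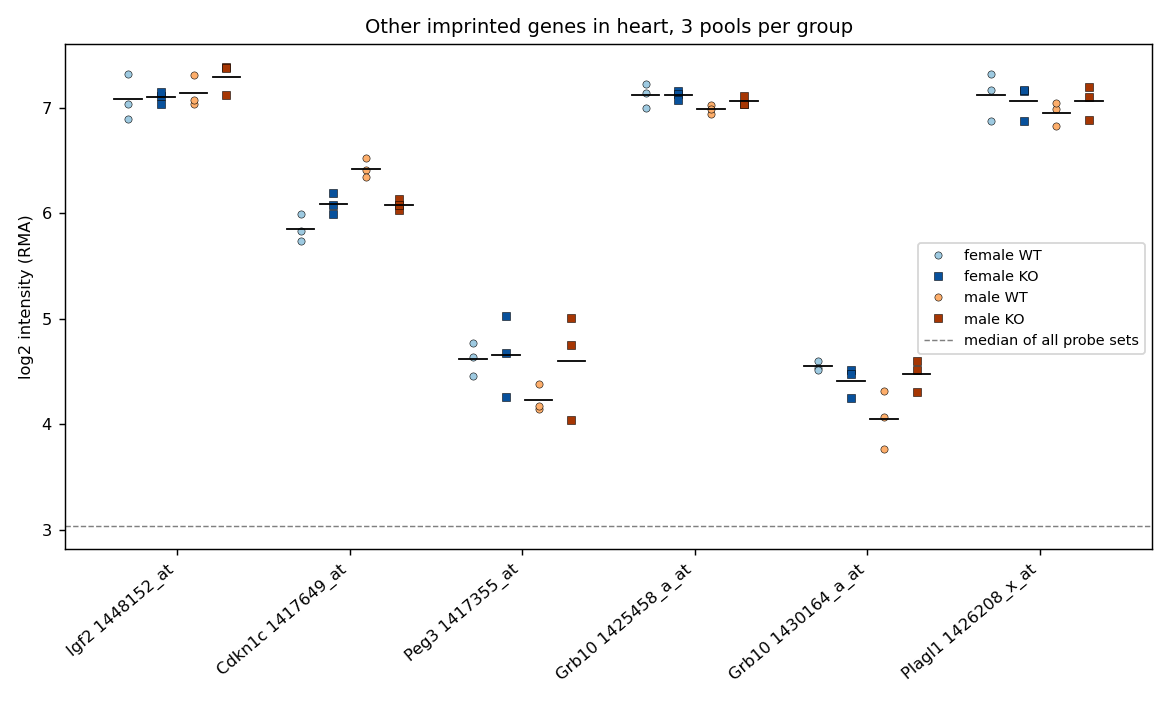
Log2 intensity in heart of the 6 probe sets of genes other than Meg3 that stood more than 1 above the median of all probe sets (dashed line), with 1 point per pool and black bars for the mean of 3 pools. Cdkn1c shows KO above WT in females and below WT in males; for the other 5 the largest difference is the 0.42 of Grb10 1430164_a_at in males.

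The probe set shared by H19 and Mir675, 1448194_a_at, was singled out after its values were seen. In male heart it had 4.72, 4.39 and 4.82 in WT and 5.34, 5.07 and 5.19 in KO, and the KO pools all lay above the WT pools. The difference was 0.56 (SE 0.14) and did not pass (limma adjusted p = 0.21). It passed with all 24 arrays in a single fit (limma adjusted p = 0.0376) and in no other alternative. Without heart pool 4, the highest of its group, the difference was 0.49 (limma adjusted p = 0.506). In female heart it had 4.89, 4.53 and 4.75 in WT and 5.0, 4.52 and 4.85 in KO, a difference of 0.06 (SE 0.14), and in liver, where its level was below the array median, it differed by -0.02 and 0.02. H19 and Mir675 cannot be told apart with it.

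The tests of differences between sexes and tissues found no member either. In sex by genotype, 0 of 22 passed in liver, where 0.0311% of the array did, and 0 of 33 in heart, where 0% did. In limma 1 of 22 and 6 of 33 had an unadjusted p under 0.05, against 4.82% and 4.57% of the array. The 6 of 33 are a larger share than on the array. Probe sets of the same gene are not independent, so nothing is read from such shares here. Between the sexes in heart, 0 of 33 passed in WT and 0 of 33 in KO, with backgrounds of 0.0178% and 0.0133% (limma; 5 and 3 at an unadjusted p under 0.05, against 5.73% and 5.97%). In tissue by genotype, 0 of 22 passed in each sex, with backgrounds of 0.4% in females and 0.271% in males (limma; 1 and 3 at an unadjusted p under 0.05, against 6.41% and 7.1%).

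Other imprinted genes were counted with 1 probe set per gene, from lists chosen with earlier results of these data known. Of 36 further imprinted genes outside these clusters, 0 passed in limma in any of the 4 comparisons, with 1, 3, 5 and 1 at an unadjusted p under 0.05 in female liver, male liver, female heart and male heart. In these comparisons, in the same order, 5.69%, 8.51%, 6.33% and 5.8% of the array had such a p, and 0.48%, 0.344%, 0.311% and 0.275% passed, which are also the shares to set beside the lists that follow. The median differences of the 36 genes lay between -0.01 and 0.02. Of the genes often grouped as an imprinted gene network, several of them described above, 14 were tested in liver without Meg3 and 15 in heart, and 0 passed (limma; 2, 0, 3 and 2 at an unadjusted p under 0.05). The 4 measured neighbours of Peg3 and 15 genes that set or keep imprints, among them DNA methyltransferases, also gave 0 calls in limma, with 0 to 2 at an unadjusted p under 0.05 in each comparison. The 9 genes listed for fetal liver gave 0 calls and 0 at an unadjusted p under 0.05 in limma. Not all of them are high before birth and low in the adult. Their median differences were 0.08 and 0.03 in female and male liver.

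Among 25 probe sets for 14 genes beside Igf2 and Cdkn1c on chromosome 7, 1 rose in the KO livers of both sexes, 1417809_at of Slc22a18, an imprinted gene expressed from the maternal copy. In female livers it had 7.52, 7.45 and 7.28 in WT and 7.98, 8.06 and 7.89 in KO, a rise of 0.56 (SE 0.09, limma adjusted p = 0.00995). In male livers it had 7.42, 7.30 and 7.46 in WT and 8.14, 8.09 and 7.92 in KO, a rise of 0.65 (SE 0.09, limma adjusted p = 0.00432). All 6 KO pools lay above all 6 WT pools. In females the call was lost without KO pool 11, where the difference was 0.52 (limma adjusted p = 0.0612), and in a fit of the compared arrays alone (limma adjusted p = 0.101). In males it held when each pool was left out in turn. With 1 probe set per gene the other probe set stands for Slc22a18, and neither sex passed.

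The second Slc22a18 probe set, 1427531_a_at, also stood higher in KO but did not pass in either sex. It had 6.58, 6.67 and 6.39 in WT and 6.65, 7.24 and 7.04 in KO female livers, with 1 KO pool inside the WT range, a difference of 0.43 (SE 0.16, limma adjusted p = 0.596). In male livers it had 6.56, 6.46 and 6.30 in WT and 7.31, 7.14 and 6.78 in KO, a difference of 0.64 (SE 0.16, limma adjusted p = 0.175). The male difference passed with all 24 arrays in a single fit (limma adjusted p = 0.0298), 1 of 15 alternatives. Slc22a18 did not pass in heart with either probe set, where 1417809_at differed by -0.18 in females and -0.12 in males at levels near the heart median. The difference in liver less the difference in heart for 1417809_at was 0.75 (SE 0.15, limma adjusted p = 0.018) in females and 0.77 (SE 0.15, limma adjusted p = 0.0185) in males. These values reuse the liver differences that singled out this probe set, so their p-values are no separate evidence. For 1427531_a_at the same contrast was 0.42 (SE 0.20, limma adjusted p = 0.768) in females and 0.54 (SE 0.20, limma adjusted p = 0.522) in males. Neither passed. The lost calls below are those of 1417809_at. The female call was lost without liver KO pool 11 (0.71, limma adjusted p = 0.0611), liver WT pool 9 (0.68, 0.0623), heart KO pool 10 (0.69, 0.071) or heart WT pool 7 (0.73, 0.064). The male call was lost without liver KO pool 4 (0.73, limma adjusted p = 0.0667) or 5 (0.75, 0.0598), liver WT pool 2 (0.72, 0.0723) or heart KO pool 4 (0.76, 0.0513) or 5 (0.75, 0.0531). It was also lost in a fit of the male arrays alone (limma adjusted p = 0.0728) and with pool number as a replicate block (0.0596). Without heart pools 4 and 10 together both were lost (0.0948 and 0.059).

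**Figure D5:**
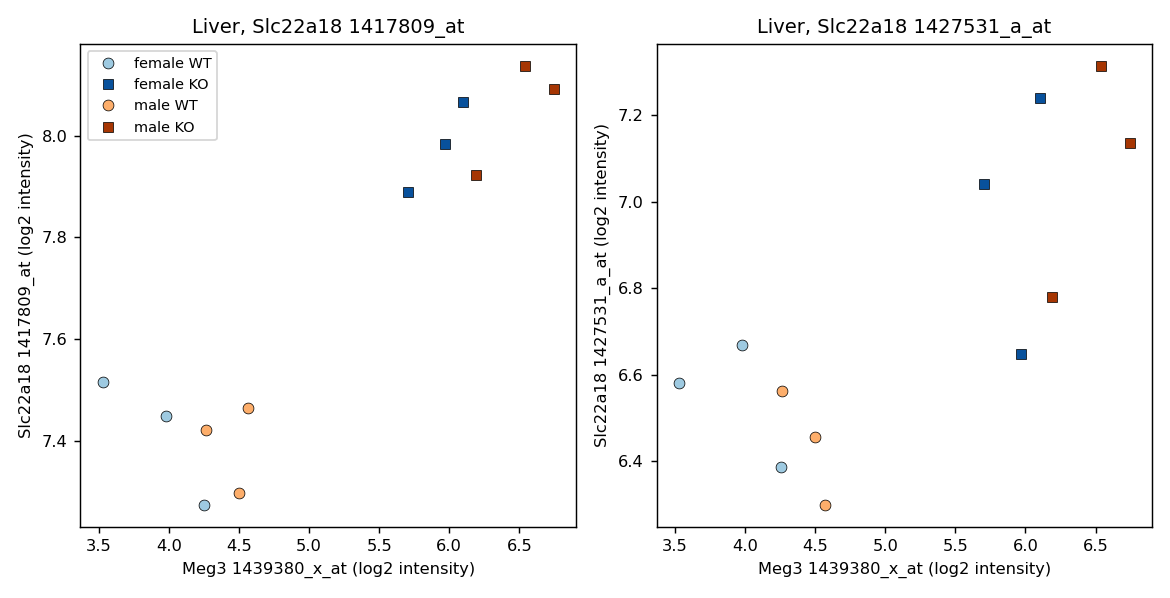
Log2 intensity of the 2 Slc22a18 probe sets (vertical axes) against Meg3 1439380_x_at (horizontal axes) in the 12 liver pools, circles for WT and squares for KO. With 1417809_at the KO pools lie between 7.89 and 8.14 and the WT pools between 7.28 and 7.52, apart along both axes; with 1427531_a_at 1 KO pool lies among the WT pools.

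Slc22a18 1417809_at was also among the 5 single-gene probe sets most like Meg3 1439380_x_at over the 12 liver arrays, with a Pearson r of 0.92. The others were Ttc39a (0.95), the chemokine gene Cxcl14 (0.93), Cdk6, a kinase of the cell cycle (0.91), and Olfml1 (0.90). All 5 were picked for this likeness among all single-gene probe sets, and the 12 arrays fall into 2 genotypes, so the values are a description. Cxcl14 had means of 2.33 ± 0.31 (SD, n = 3) in WT and 3.84 ± 0.60 in KO female livers, and 2.67 ± 0.31 and 5.22 ± 0.23 in male livers. In heart the 5 most like were Dcxr (0.87), Bsn (0.87), B230216N24Rik (0.86), Ints11 (0.86) and Capg (0.85), none of them on the liver list.

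Of 20 genes of IGF and insulin signalling, which Igf2 and Grb10 act on, 2 passed in 1 comparison each, 1 in female liver, where 0.48% of the array passed, and 1 in female heart, where 0.311% did. At an unadjusted p under 0.05 there were 5, 2, 3 and 0 in female liver, male liver, female heart and male heart. Igfbp5, a binding protein of IGFs, rose in female KO liver with 1452114_s_at. It had 2.61, 3.00 and 2.61 in WT and 4.08, 4.30 and 3.32 in KO, a difference of 1.16 (SE 0.20, limma adjusted p = 0.0204). The call was lost when KO pool 10 (1.07, limma adjusted p = 0.0789), KO pool 11 (0.96, 0.0893), WT pool 7 (1.09, 0.109) or WT pool 9 (1.09, 0.0949) was left out and in a fit of the compared arrays alone (0.291). Its other probe set differed by 0.06, and the male livers by -0.0047 with 1452114_s_at; the difference between the sexes did not pass (limma adjusted p = 0.72). Igfbp6, another IGF binding protein, fell in female KO heart from 6.72, 6.51 and 6.63 in WT to 6.07, 5.77 and 6.01 in KO, a difference of -0.67 (SE 0.12, limma adjusted p = 0.0155). The call was lost without KO pool 11 (-0.58, limma adjusted p = 0.0913), WT pool 7 (-0.62, 0.11) or WT pool 9 (-0.67, 0.0584). The difference between the sexes did not pass (limma adjusted p = 0.986). The mean over 4 smooth muscle genes was also lower in these hearts, 6.40 to 6.60 over the WT pools and 5.91 to 6.21 over the KO pools, with 4 of 4 at an unadjusted p under 0.05 and none past the adjusted threshold. The mean over 4 adipocyte genes ran from 6.27 to 6.51 over the WT pools and from 5.64 to 6.29 over the KO pools, with 3 of 4 at an unadjusted p under 0.05, differences from -1.52 to 0.48 and none past the adjusted threshold. The mean over 3 erythroid genes ran from 5.13 to 5.37 over the WT pools and from 4.81 to 5.04 over the KO pools. Of these 3, 1 had an unadjusted p under 0.05 in limma and none passed the adjusted threshold. The mean over 6 cardiomyocyte genes went the other way, from 12.69 to 12.70 over the WT pools and from 12.75 to 12.76 over the KO pools. The part of any of these in the Igfbp6 value was not tested.

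Markers of other liver cells were read beside Meg3, since fibroblasts and endothelial cells are known to express it. None of the 10 stellate cell and fibroblast genes passed, and their mean level ran from 3.44 to 3.56 in WT and from 3.40 to 3.52 in KO female livers, and from 3.33 to 3.62 and from 3.39 to 3.57 in male livers. None of 7 endothelial genes passed, with mean levels from 3.87 to 4.09 in WT and from 3.75 to 3.92 in KO females and from 3.86 to 3.92 and from 3.85 to 3.94 in males. None of 6 Kupffer cell and macrophage genes passed. Their median difference was 0.30 in females and 0.06 in males, and their mean level ran from 4.4 to 4.99 in WT and from 4.8 to 5.04 in KO females and from 4.25 to 4.73 and from 4.49 to 4.70 in males. In limma, 0 and 0, 1 and 0, and 2 and 0 genes of these lists had an unadjusted p under 0.05 in female and male liver. The hepatocyte genes, with a mean between 12.0 and 12.2 in every liver, and the cardiomyocyte genes, with a mean between 12.6 and 12.8 in every heart, matched the tissue labels. The part of other cell types in the Meg3 values was not tested.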

How the data were processed

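RNA from 24 pools of 4 mice each was hybridised to Affymetrix arrays. The deposited values are log2 intensities that the authors made with RMA, per the submitters' processing notes; the version is not given in the sources used here, and the labels do not say whether same-numbered liver and heart pools hold the same mice. Of 45101 probe sets, 64 controls were left out. The gene table gave 34945 probe sets a single gene, 932 several and 9160 none; symbols can be old. Groups were compared on all 45037 probe sets with limma 3.58.1 in R 4.3.3 (cell-means model, lmFit and eBayes, two-sided, Benjamini-Hochberg adjustment, threshold 0.05), with the 12 arrays of a tissue in a fit and all 24 for tissue by genotype. No filter on dim probe sets was applied. The test was tested on simulated data. The precision is limited by 3 pools a group. The members and gene lists were chosen with earlier results of these data known. Lists used 1 probe set per gene, that of highest mean signal. Named genes were all members, list genes past the threshold, the 5 flanking genes on each side and the 5 most like Meg3 by Pearson correlation. Alternatives were other arrays in the fit, array weights, trended variance, median centring, renewed quantile normalization, filters on dim or cross-matching probe sets, 1 probe set per gene, pools left out and pool number as a block.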

Additional observations from a re-analysis of the deposited data

Results flagged for a closer look

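Cdkn1c 1417649_at had KO hearts above WT hearts in females and below them in males in all 3 pools of each. The female difference less the male one was 0.58 (SE 0.13), which did not pass over all probe sets (limma adjusted p = 0.986).

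Meg3 1439380_x_at had KO above WT in female liver and below WT in female heart in all 3 pools of each. The liver difference less the heart one was 2.26 (SE 0.21), and the difference was not tested because the liver values chose Meg3.

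Probe set 1448194_a_at, given to both H19 and Mir675 and so left out of the 33, had all 3 male KO hearts above the male WT hearts. The difference was 0.56 (SE 0.14, limma adjusted p = 0.21), and 0.49 without heart pool 4.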

How the results depend on the processing

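Of 211 recomputed counts of members past the threshold, 204 stayed at the reported 0 and 7 did not; all 7 were differences between the sexes. In WT liver 1 passed with only the compared arrays, 1 with array weights, and 0 to 1 with each pool left out in turn, the 1 without female WT pool 7. In KO liver 2 passed with all 24 arrays in a fit. In WT heart 1 passed each with array weights, with arrays centred on their medians and with 1 probe set per gene. Of 722 recomputed single differences, nearly all of KO from WT within a tissue, 12 lost their call and none turned their sign past the threshold. The 12 were 4 of Slc22a18 in liver, 5 of Igfbp5 and 3 of Igfbp6. Those of Slc22a18 with 1 probe set per gene were values of 1427531_a_at, which stood in for 1417809_at there. Outside these 722, the tissue by genotype difference of Slc22a18 1417809_at kept its call in 16 of 21 alternatives in females and 13 of 21 in males. The 21 do not include 1 probe set per gene, where 1427531_a_at stands for the gene. That probe set did not pass in tissue by genotype in either sex as reported. The contrast also reuses the liver values that singled out 1417809_at. With all 24 arrays in a fit, calls were gained by 1448194_a_at in male heart (limma adjusted p = 0.0376, 0.21 as reported) and by Slc22a18 1427531_a_at in male liver (0.0298, 0.175 as reported). The cause of the lost calls was not tested, in the fit of the compared arrays or elsewhere. The liver difference of Meg3 1439380_x_at ran from 1.81 to 2.17 in females and from 1.92 to 2.20 in males over the alternatives. Low signal limits the liver and heart values of Rian, Mirg and Dlk1. Livers and hearts came from the same 24 WT and 24 KO mice, but the labels do not say whether same-numbered pools hold the same mice. With pool number as a replicate block, 0 of 22 members passed in tissue by genotype in either sex (limma; 1 and 3 at an unadjusted p under 0.05), and the whole array gave 156 calls against 180 in females and 91 against 122 in males. Deviations of same-numbered pools correlated between -0.178 and 0.106, and 4 of 12 liver pools were closest to the heart pool of their own number.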
